A study of Arabidopsis thaliana with 6 samples.

Results

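The genes described here are those of the chloroplast chromosome that encode proteins other than the photosystem, cytochrome b6f, ATP synthase and Rubisco subunits. Members were taken from the RefSeq gene table by a chloroplast locus tag, leaving out symbols that start with psa, psb, pet or atp and rbcL, and each had to have a probe set of its own. This gave 36 genes, among 13286 genes with such a probe set and 69 chloroplast genes in all. They comprised 10 ndh, 7 rpl, 8 rps and 4 rpo genes and 7 others (matK, accD, clpP, ccsA, cemA, ycf3 and ycf4). A further 7 genes of this kind (ndhB, rpl2, rpl23, rps12, rps7, ycf1 and ycf2) were measured only by probe sets assigned to more than 1 gene entry and are not among the members. Each member had exactly 1 probe set.

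Whole rosettes of Arabidopsis thaliana Col-0 (wild type) and of sid2.2, a mutant allele of the isochorismate synthase gene ICS1 in the synthesis of salicylic acid, were compared. All plants of both genotypes were limited in sulfate (0.016 mM) for 60 days from sowing, in days of 8 h light (160 µmol photons per m2 per second) and 16 h darkness. Each of 3 successive cultures, months apart, contributed 1 pool of more than 6 rosettes of each genotype, which gave 3 arrays per genotype and 6 in all. The arrays are called by genotype and culture number, so that Col-0 replicate 2 and sid2.2 replicate 2 were grown in culture 2. The mutant group is 1 allele, and ICS1 was not analysed here, so no probe set checked the genotype labels. The 33 chloroplast photosynthesis genes measured, which mark green tissue, were above background on all 6 arrays.

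Chloroplasts keep a small genome that supplies part of their own machinery. The ndh genes encode subunits of the NADH dehydrogenase-like complex, which passes electrons from ferredoxin to plastoquinone in cyclic electron flow around photosystem I. The rpo genes encode the bacterial-type plastid RNA polymerase, which needs nuclear-encoded sigma factors, while a nuclear-encoded phage-type polymerase reads mainly housekeeping genes such as accD and the rpoB operon. The rpl and rps genes encode proteins of the large and small subunit of the plastid ribosome. Many plastid genes are transcribed together with their neighbours and the long transcripts are then cut, spliced and edited.

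Signals are linear intensities scaled within each array, and differences are log2 values of sid2.2 minus Col-0, each tested with limma over all 22746 probe sets that are not controls. Median signals per array lay between 130.8 and 162.3. Background was taken as the 95th percentile of 27 bacterial control probe sets, 27.9 to 39.9 by array, and 33 of the 36 genes exceeded it on every array. The exceptions were ndhF, above it on 1 array, rpoB on 3 and ndhH on 5. Dividing the 3′ by the 5′ actin signal, a quotient that rises with shorter RNA or shorter targets, gave 4.91, 4.85 and 4.81 for Col-0 and 5.34, 6.51 and 8.34 for the mutant. Signals of the hybridisation controls had a median of 690.4 to 863.8 on 5 arrays and of 1559 on sid2.2 replicate 3. The part of these array differences in the results below was not tested. In whole rosettes fewer chloroplasts or chloroplast-rich cells and less RNA per chloroplast cannot be told apart.

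No member passed the test between the genotypes, and most members had lower signals in sid2.2. By limma 0 of 36 members were called higher and 0 lower at an adjusted p under 0.05, as were 0% of all probe sets in either direction. At an unadjusted p under 0.05, 4 members (rpoC1, accD, ndhA and ndhH) were lower, where 2.47% of all probe sets were, and 0 were higher, where 4.37% were. The log2 difference was below 0 for 32 of the 36 members, against 48.6% of all probe sets. The median over the members was -0.28, and over all probe sets 0.016. The exceptions above 0 were rps14, rpoC2, rpl14 and rps4. Of these only rps14 kept its sign under every alternative that tested it. rpoC2 was at -0.12 without culture 3, rpl14 at -0.092 without Col-0 replicate 1 and rps4 at -0.17 without sid2.2 replicate 3. Centring each array on its median or on hybridisation controls shifts all genes alike, and also turned the sign of rpl14 and rps4 (-0.029 and -0.038, median centring) and of rpoC2 (-0.21, hybridisation controls). Relative to the median of all probe sets these 3 stayed above 0 under both, at 0.035, 0.026 and 0.18. The members came from the same 6 RNA pools, so their shared sign is not a set of separate observations.

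**Figure D1:**
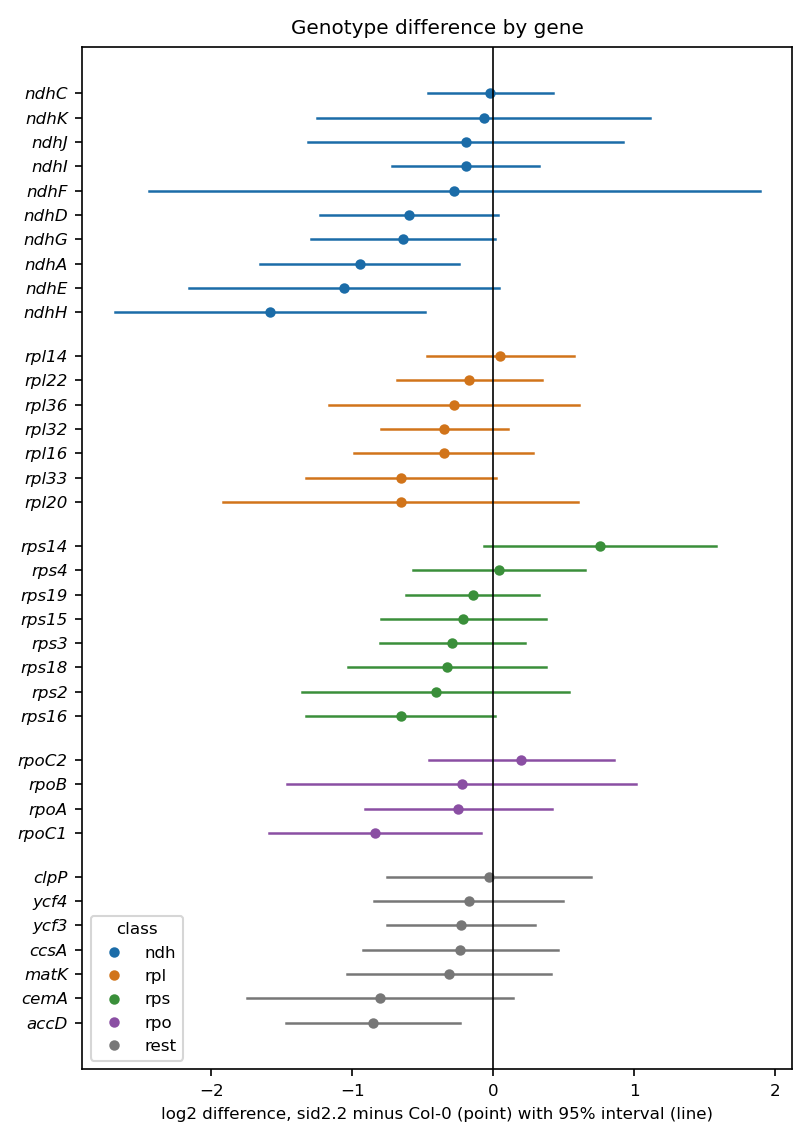
Log2 difference between sid2.2 and Col-0 for each of the 36 genes (points) with its 95% interval from limma (lines), grouped by class, 3 arrays per genotype. The points of 32 genes lie below 0, and the intervals of 4 genes exclude 0 before adjustment for multiple tests.

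The lower signals were uneven over the cultures. Within cultures 1, 2 and 3 the median difference of the 36 genes was -0.34, -0.86 and 0.096, and 25, 33 and 16 of them were below 0. Over all probe sets these medians were 0.15, -0.042 and -0.0044. Col-0 replicate 2 had the highest signal for 22 members, where it was the highest array for 19.2% of all probe sets. The lowest signal was on sid2.2 replicate 2 for 20 members, where it was the lowest for 21.7% of all probe sets. With both arrays of culture 2 left out, 20 of the 36 genes were below 0 and the median was -0.043. In 11 members all 3 cultures had a difference below 0 (9.96% of all probe sets), and in rps14 alone all 3 were above it (13.1% of all probe sets).

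**Figure D2:**
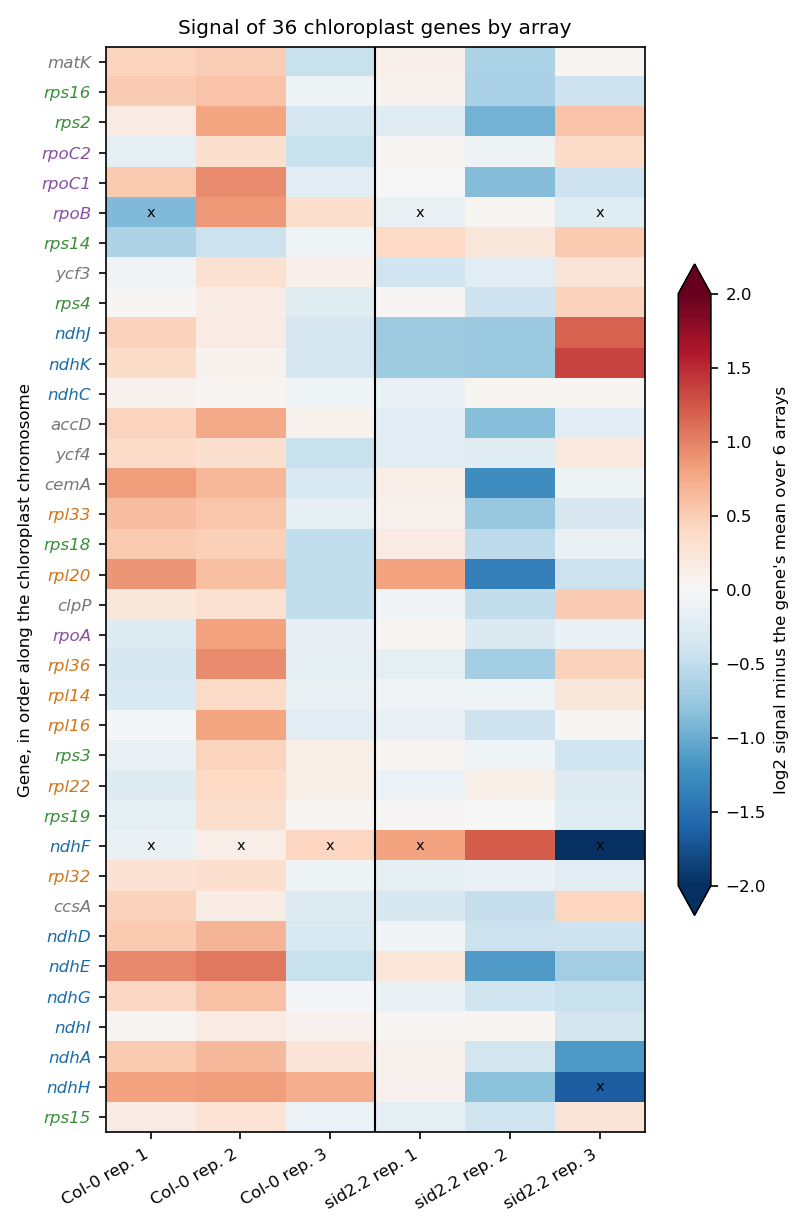
Log2 signal of each of the 36 genes on each of the 6 arrays, minus the mean of the gene over the arrays, with genes in their order along the chloroplast chromosome. Red is above and blue below the mean of the gene, colours end at the ends of the bar, and x marks a signal not above background; 22 genes are highest on Col-0 replicate 2 and 20 are lowest on sid2.2 replicate 2.

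Across the 6 arrays most members had their highest and lowest signals in different genotypes. For rps4, ndhJ, ndhK, clpP and ndhF both lay in sid2.2, and for ycf4, rpoB and rpl14 both lay in Col-0. The highest signal lay on a Col-0 array for 29 of 36 members (49.5% of all probe sets) and the lowest on a sid2.2 array for 31 (47.3% of all probe sets). On sid2.2 replicate 3, which carried the highest actin ratio, 6 members had their highest signal (15.8% of all probe sets) and 9 their lowest (17% of all probe sets). The signals of the genotypes did not overlap for 7 members. They were lower in sid2.2 for ndhH, ndhA, ndhI, ndhG, rpl32 and accD, 6 of 36 where 4.86% of all probe sets did so, and higher for rps14, 1 of 36 where 6.94% did so.

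The ndh genes had the lowest class median, -0.44, and all 10 were below 0, among them ndhF at background. Their medians within cultures 1, 2 and 3 were -0.56, -0.94 and -0.33, with 9, 8 and 7 of the 10 below 0. These medians and counts include ndhF, at 0.94, 1.08 and -2.84, whose signs carry no weight. The order of the classes rested on single arrays: without Col-0 replicate 1 the rpo median was -0.58 and the ndh median -0.45. Without sid2.2 replicate 1 the ndh median was -0.73. The genes ndhH, ndhA, ndhI, ndhG, ndhE and ndhD lie next to each other, with only psaC between ndhE and ndhD. Each had its highest signal on Col-0 replicate 2. That was not particular to this run, since 22 of the 36 members and 19 of the 33 chloroplast photosynthesis genes did so (19.2% of all probe sets). The genes ndhJ, ndhK and ndhC lie together elsewhere, and the first 2 of them, but not ndhC, had their highest signals on sid2.2 replicate 3.

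ndhH, a subunit of the stromal arm that docks the electron donor, had the largest difference of all members over the 6 arrays, though not without culture 3, where ndhE was at -1.46, cemA at -1.31 and ndhH at -1.19. Its signals were 116.2, 118.9 and 109.7 in Col-0 (mean 115 ± 4.73, SD, n = 3) and 70.6, 37.5 and 21.1 in sid2.2 (mean 43.1 ± 25.2, SD, n = 3). All sid2.2 arrays were below all Col-0 arrays, and sid2.2 replicate 3 was below its background of 39.9. The log2 difference was -1.59 (SE 0.48, 95% interval -2.69 to -0.49, limma adjusted p = 0.579). Because sid2.2 replicate 3 is only a bound, this value depends on how low signals are treated: it was -1.39 with a floor of 32 and -1.23 with a pseudocount of 16. Within cultures 1, 2 and 3 it was -0.72, -1.67 and -2.38, the last against a signal not above background, and it stayed between -2.03 and -1.16 with any array or culture left out (-1.16 without sid2.2 replicate 3).

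ndhA, a membrane subunit at the junction with the stromal arm, whose gene lies beside ndhH, had the same order of arrays within sid2.2. Its signals were 6720, 7332 and 5620 in Col-0 against 5000, 3645 and 2114 in sid2.2, with no overlap. The log2 difference was -0.95 (SE 0.31, limma adjusted p = 0.609), with -0.43, -1.01 and -1.41 within the cultures. Without sid2.2 replicate 3, the array with the highest actin ratio, it was -0.61. Within sid2.2 the actin ratio ran opposite to both genes. It was 5.34, 6.51 and 8.34 on sid2.2 replicates 1, 2 and 3, while ndhH and ndhA fell in that order. In Col-0 both genes were lowest on replicate 3, where the ratio was also lowest (4.91, 4.85 and 4.81 by replicate). The signals of ndhG, rps3 and rps19 also fell from sid2.2 replicate 1 to 2 to 3. Those of ycf3 rose in that order (488.5, 552.6 and 766.1), and the remaining members did neither. How many of all probe sets fell in that order was not counted. The 5′ actin signal itself was 2605, 2729 and 2652 in Col-0 against 2292, 1858 and 1517 in sid2.2, while the 3′ signal lay between 12096 and 13247 on all 6 arrays. The part of RNA or target length in the ndhH and ndhA values was not tested.

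**Figure D3:**
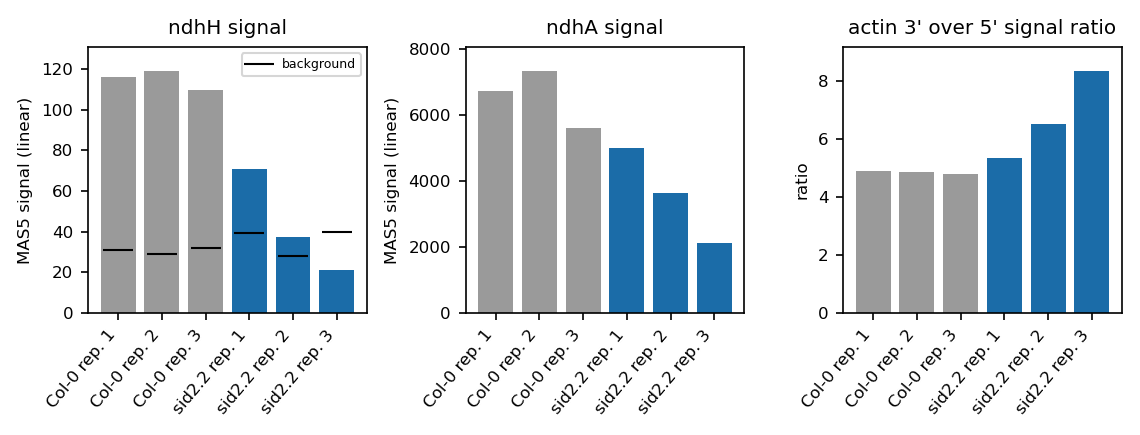
Signal of ndhH and of ndhA and the ratio of 3′ over 5′ actin signal on each array, with Col-0 in grey and sid2.2 in blue; each bar is 1 array and axes start at 0. The short lines in the first panel are the background of each array, above which ndhH lies except on sid2.2 replicate 3.

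Next along the chromosome come ndhI, ndhG and ndhE. ndhI, an iron-sulfur subunit of the stromal arm, gave 23084, 24858 and 23505 in Col-0 against 22703, 22801 and 17327 in sid2.2. The genotypes did not overlap, but the log2 difference was only -0.20 (SE 0.23), or -0.065 without sid2.2 replicate 3, and sid2.2 replicates 1 and 2 lay close to Col-0. ndhG, a membrane subunit, had 215.3, 242.5 and 157.0 in Col-0 against 147.7, 123.2 and 119.0 in sid2.2, again without overlap, and a difference of -0.64 (SE 0.29, limma adjusted p = 0.735). ndhE, a small membrane subunit, had 477.0, 508.6 and 179.8 in Col-0 against 289.6, 110.9 and 150.9. Col-0 replicate 3 fell within the range of the mutant for ndhE, so that its difference of -1.06 (SE 0.48) rested on Col-0 replicates 1 and 2.

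ndhD and ndhF encode large membrane subunits related to proton-pumping antiporters. For ndhD the signals were 1712, 1902 and 958.6 in Col-0 against 1141, 880.8 and 895.2 in sid2.2, a difference of -0.60 (SE 0.28, limma adjusted p = 0.739). Here too Col-0 replicate 3 lay within the mutant range. ndhF was not above background on any Col-0 array (11.5, 13.8 and 17.0) and only on sid2.2 replicate 2 (29.2 against 27.9). No fold is therefore read from it, and neither the size nor the sign of its fitted differences carries weight. rps15, a ribosomal protein gene at the far side of ndhH, differed by -0.21 (SE 0.26) and had 350.0 on sid2.2 replicate 3, within the Col-0 range of 269.9 to 352.2.

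ndhJ and ndhK encode stromal-arm subunits, ndhK an iron-sulfur one, and ndhC a membrane subunit. ndhJ had 4694, 3816 and 2698 in Col-0 against 2058, 2033 and 7687 in sid2.2. ndhK had 1661, 1358 and 1015 in Col-0 against 785.1, 771.6 and 3292 in sid2.2. For both genes sid2.2 replicates 1 and 2 were below every Col-0 array and sid2.2 replicate 3 was above every one. Their differences within cultures 1, 2 and 3 were therefore of opposite sign, -1.19, -0.91 and 1.51 for ndhJ and -1.08, -0.82 and 1.70 for ndhK. Over all arrays they were -0.20 (SE 0.49) and -0.067 (SE 0.52), and for both the sign turned when sid2.2 replicate 1 or 2 or culture 1 or 2 was left out (0.12, 0.13, 0.30 and 0.16 for ndhJ, and 0.27, 0.29, 0.44 and 0.31 for ndhK). ndhC, the third gene of this run, had 11714, 11336 and 10373 in Col-0 against 10123, 11496 and 11308 in sid2.2, all within a narrow range, with a difference of -0.022 (SE 0.19).

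**Figure D4:**
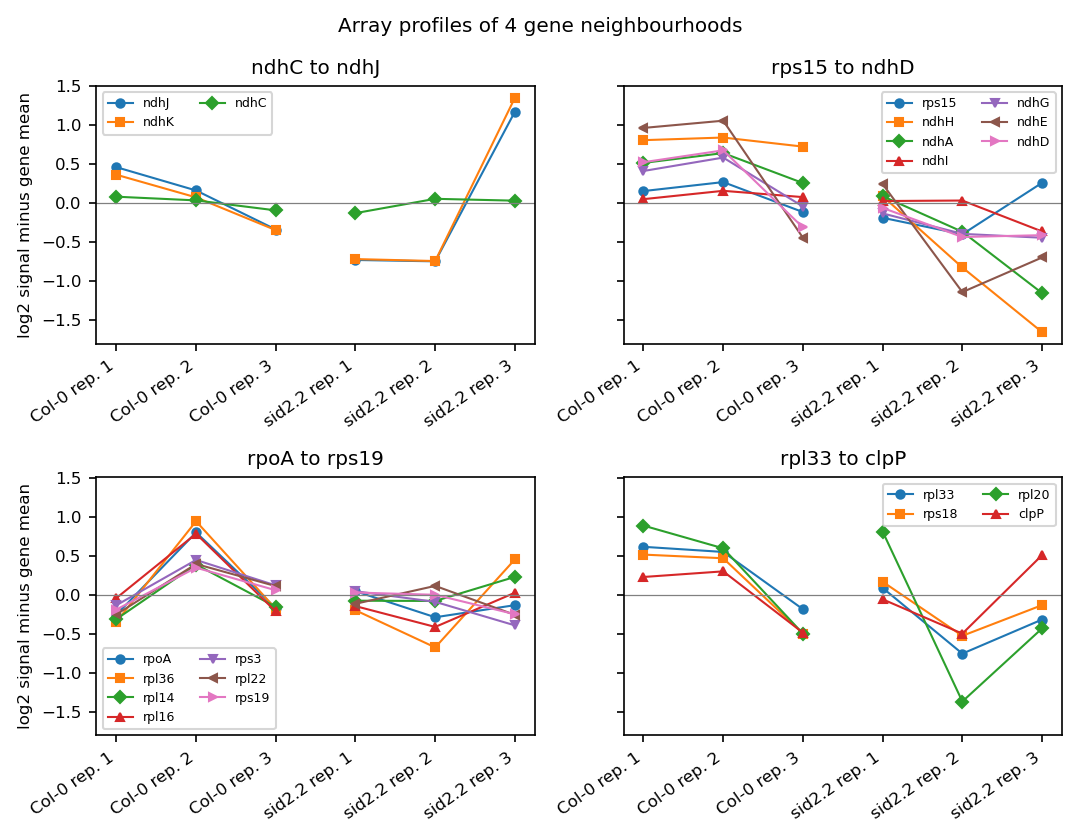
Log2 signal minus the mean of each gene over the 6 arrays, for 4 runs of neighbouring genes; each line is a gene, broken between Col-0 and sid2.2, and each point is 1 array. ndhJ and ndhK run together and peak on sid2.2 replicate 3, and the run from rps15 to ndhD is mostly lower in sid2.2. The run from rpoA to rps19 peaks on Col-0 replicate 2, the highest array for 22 of all 36 genes.

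Array profiles were compared between genes by the root mean square of the differences between their mean-centred log2 signals, over the 6 arrays. For 19 pairs of members adjacent in the order of protein-coding genes, both above background on all arrays, the median distance was 0.32 (range 0.084 to 0.69). Strand and any RNA genes between them were not considered, so such pairs need not share a transcript. For the other 509 pairs of the same 33 genes it was 0.44 (range 0.080 to 1.17). ndhJ and ndhK were 0.091 apart and rpl22 and rps19 were 0.084 apart, whereas ndhK and ndhC were 0.69 apart. Near-identical profiles also occurred far apart on the chromosome, as for rps16 and rpl33 (0.080) and for matK and rps18 (0.10). These distances share the 6 arrays and the pairs share genes, so they are a description.

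The plastid RNA polymerase genes did not differ in 1 direction. rpoC1, which encodes the beta prime subunit, had 1683, 2275 and 1019 in Col-0 against 1188, 647.8 and 887.4 in sid2.2, a difference of -0.84 (SE 0.33, limma adjusted p = 0.692). Sid2.2 replicate 1 lay above Col-0 replicate 3, so the genotypes overlapped. rpoC2, of the beta double prime subunit, had 193.7, 274.3 and 160.7 against 221.9, 204.0 and 285.7, a difference of 0.20 (SE 0.29).

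rpoA, of the alpha subunit, lies apart from the other rpo genes. It had 3130, 6505 and 3316 in Col-0 against 3857, 3061 and 3408 in sid2.2, so that Col-0 replicate 2 stood above the other 5 arrays. Its difference of -0.25 (SE 0.29) turned to 0.089 without that array. rpoB, of the beta subunit, was near background throughout, with 20.4, 69.0 and 47.8 in Col-0 against 33.8, 39.2 and 31.8 in sid2.2, and was above background on 3 arrays only. The class median was -0.24, and 0.25, -0.95 and -0.080 within the cultures. Without Col-0 replicate 2 it was 0.12, and without culture 2 it was 0.12.

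Of the 7 genes for large ribosomal subunit proteins, 6 were below 0, with a median of -0.35. rpl33 had 9103, 8697 and 5228 in Col-0 against 6318, 3524 and 4771 in sid2.2, a difference of -0.65 (SE 0.30, limma adjusted p = 0.735). The genotypes overlapped only through Col-0 replicate 3 and sid2.2 replicate 1. rpl32 had 6839, 7136 and 5225 against 4950, 5142 and 4873, a smaller difference of -0.35 (SE 0.20, limma adjusted p = 0.798) but without overlap.

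rpl16, rpl36 and rpl14 lie in the long run of ribosomal genes that begins at rpoA. rpl16 had 2286, 4050 and 2030 in Col-0 against 2129, 1769 and 2398 in sid2.2, so that Col-0 replicate 2 stood alone above the other 5 arrays. Its difference was -0.35 (SE 0.28) and 0.069 without culture 2. rpl36, rpl14 and rpl22 likewise had their highest signal on Col-0 replicate 2, at 4321, 3961 and 7203, with differences of -0.28, 0.051 and -0.17. rpl20 differed by -0.66 with a wide error (SE 0.55), since its signals of 642.8, 525.3 and 246.2 in Col-0 spanned those of 609.6, 134.7 and 257.9 in sid2.2 but for replicate 2. Within cultures the class median was -0.077, -1.19 and 0.067, and it was -0.0048 without culture 2.

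Of the 8 genes for small ribosomal subunit proteins, 6 were below 0, with a median of -0.25. rps16 had 371.5, 388.4 and 242.5 in Col-0 against 273.3, 166.3 and 196.0 in sid2.2, a difference of -0.66 (SE 0.30, limma adjusted p = 0.735), again with overlap only through Col-0 replicate 3 and sid2.2 replicate 1. rps3 had 5773, 8630 and 6882 against 6536, 5949 and 4826, a difference of -0.29 (SE 0.23). rps19, its near neighbour, differed by -0.15, and rps18, beside rpl33, by -0.33. rps2, beside rpoC2, differed by -0.41 (SE 0.42), with 0.92 in culture 3 against -1.74 in culture 2. rps4 had 12603, 13793 and 10532 in Col-0 against 12672, 9274 and 17003 in sid2.2, its lowest and highest both in the mutant, with a difference of 0.042 (SE 0.27).

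rps14 was the member with higher signals in the mutant on every array. It had 43.0, 49.0 and 62.6 in Col-0 (mean 51.5 ± 10.04, SD, n = 3) and 87.2, 77.4 and 94.8 in sid2.2 (mean 86.5 ± 8.72, SD, n = 3). The log2 difference was 0.76 (SE 0.36, 95% interval -0.063 to 1.58, limma adjusted p = 0.756), with 1.02, 0.66 and 0.60 within the cultures. These signals were low, above background on all arrays but within the dimmest 40% of probe sets. The class median within cultures was -0.17, -0.62 and 0.37, and 0.012 without culture 2.

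All 7 other genes were below 0, with a median of -0.23. It was -0.15, -0.13 and -0.10 without Col-0 replicate 2, sid2.2 replicate 1 and sid2.2 replicate 2, while leaving out Col-0 replicate 3 gave -0.44 and leaving out sid2.2 replicate 3 gave -0.42. Without culture 2 the class median was -0.042, and without culture 3 it was -0.70. accD, which encodes a subunit of the plastid acetyl-CoA carboxylase of fatty acid synthesis, had 624.7, 779.9 and 483.4 in Col-0 (mean 629.3 ± 148.3, SD, n = 3) and 394.7, 255.5 and 396.3 in sid2.2 (mean 348.9 ± 80.8, SD, n = 3). The genotypes did not overlap, and the difference was -0.85 (SE 0.27, 95% interval -1.47 to -0.24, limma adjusted p = 0.605). It was -0.66, -1.61 and -0.29 within the cultures. cemA, of a chloroplast envelope protein, had 1136, 1007 and 513.7 in Col-0 against 695.1, 269.2 and 590.4, a difference of -0.80 (SE 0.41) with overlap. Without sid2.2 replicate 2 the cemA difference was -0.39.

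The genes ccsA and ycf3 showed no such separation. ccsA, which acts in haem attachment to c-type cytochromes, had 17369, 14099 and 10578 in Col-0 against 10102, 9224 and 17146 in sid2.2, a difference of -0.23 (SE 0.30). Like ndhJ and ndhK, the genes ccsA, ycf3 and rps15 were lower on sid2.2 replicates 1 and 2 than on any Col-0 array. On sid2.2 replicate 3, however, ccsA, ycf3 and rps15 stayed within the Col-0 range. ycf3, of a photosystem I assembly factor, had 610.4, 792.4 and 690.7 in Col-0 against 488.5, 552.6 and 766.1 in sid2.2, and sid2.2 replicate 3 lay within the Col-0 range. It differed by -0.23 (SE 0.23). ycf4, of another such factor, differed by -0.17, matK, of the intron maturase, by -0.31, and clpP, of the Clp protease core, by -0.030. In culture 3 alone, 6 of these 7 genes were above 0, with a class median of 0.51 against -0.60 and -0.80 in cultures 1 and 2.

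**Figure D5:**
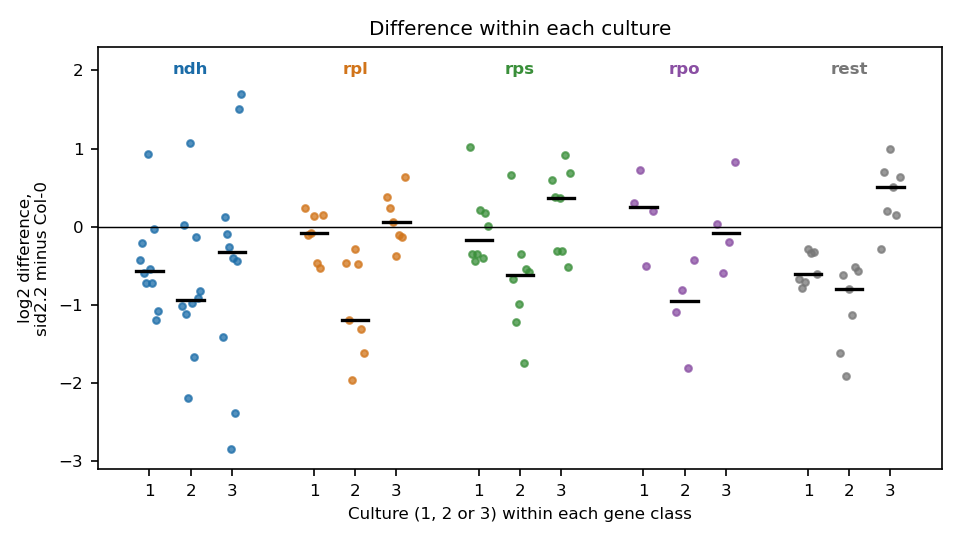
Log2 difference between the sid2.2 and the Col-0 array of each culture, for every gene (points) of the 5 classes, with class medians as black lines. In culture 2 every class median lies below 0. In culture 3 the medians of the rpl, rps and other genes lie above 0, and those of the rpo genes (-0.080) and ndh genes (-0.33) below it. The ndh median includes ndhF, which was at background.

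The 33 chloroplast photosynthesis genes with a probe set of their own, measured in the same pools, had similar values. Their median difference was -0.32, with 27 of 33 below 0, and -0.45, -0.86 and 0.28 within the cultures, against -0.34, -0.86 and 0.096 for the 36 genes described here. No test of the difference between these sets was made.

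Of 98 nuclear genes listed for the same complexes, 19 had a probe set of their own and 0 were called by limma. At an unadjusted p under 0.05 there was 1, NdhN, which was lower. At that threshold 2.47% of all probe sets were lower and 4.37% higher. The 3 nuclear subunits of the NADH dehydrogenase-like complex that were measured were all below 0. NdhN had 3398, 3210 and 2107 in Col-0 against 1881, 1260 and 2258 in sid2.2, a difference of -0.70 (SE 0.28, limma adjusted p = 0.692). NdhS, which carries a site for ferredoxin, had 5066, 5290 and 4495 against 3361, 3238 and 4433, without overlap and with a difference of -0.44 (SE 0.20). NdhL differed by -0.47 (SE 0.22).

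Among nuclear factors for ndh RNA processing, 2 of 5 were below 0 and the median was 0.019. CRR21, an editing factor for ndhD, differed by -0.48 (SE 0.30) and CRR22, another editing factor, by 0.53 (SE 0.81) with signals at or below background on 3 arrays. Of 8 measured nuclear proteins of the plastid ribosome 7 were below 0, with a median of -0.23. AT5G47190, of a large-subunit protein, differed by -0.42 (SE 0.24) and AT3G13120, of a small-subunit protein, by -0.41 (SE 0.28), both with overlap. The plastid Clp subunit genes CLPP4 and AT1G09130 differed by -0.18 and 0.39, the latter without overlap. The organellar phage-type polymerase gene AT5G15700 was at 13.2, 13.2 and 9.04 in Col-0, below background. In sid2.2 it was at 54.2, 53.3 and 12.9, the last below the background of 39.9 on replicate 3. Its log2 difference of 1.52 (SE 0.68, limma adjusted p = 0.735) is thus against signals not above background. Sigma factors and polymerase-associated proteins were not analysed here.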

How the data were processed

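The deposited table holds linear signal intensity for 22810 probe sets (64 of them controls) on 6 arrays, which the authors computed with MAS5 according to the submitters' processing notes. No MAS5 version is given in the sources used here. With 2% left out at each end, array means lay between 500.05 and 500.06, so each array had been scaled to a common level, which removes any change in total signal. Targets were amplified from 200 ng of total RNA, per the labels' protocols. Such amplification commonly starts at poly(A) tails, which most plastid transcripts carry only transiently, so signals are not molar amounts. Levels of different genes were not compared as results; signals ranked probe sets only for the low-signal filter and the choice of genes to name.

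Probe sets were named through the platform annotation by gene identifier (13513 with 1 gene entry, 503 with several, 8794 with none), with symbols and gene order from RefSeq (assembly TAIR10.1). Chromosome positions are not printed, since the annotation names no build.

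Intensities were log2 transformed and fitted by genotype in limma 3.58.1 (R 4.3.3; lmFit, then trended eBayes, two-sided tests, Benjamini-Hochberg over 22746 probe sets), with no low-signal filter, so that every member was tested. Precision is limited by the number of arrays, 3 per genotype. The fit was tested on simulated data with known changes. Nuclear genes were listed by locus. Full values are given for every ndh and rpo gene and, in the other classes, for the gene with the highest level and the 3 with the smallest p, with at least the differences of the 2 genes with the smallest p in each nuclear list. The remaining members are given by their differences or ranges, with single values chosen after they were seen. The members, lists and tests were chosen with earlier results of these data known.

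A culture is a batch shared by same-numbered arrays, per the labels, so the numbers pair the arrays. The deviations from the genotype means correlated at 0.015, -0.17 and -0.18 for cultures 1, 2 and 3. Alternatives covered the scaling, filter, floor, pseudocount, variance trend, replicate block and arrays left out. Centring on 18 hybridisation control probe sets was added after seeing the data.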

Additional observations from a re-analysis of the deposited data

How the results depend on the processing

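No member was called under any of the 18 alternatives run, and the smallest limma adjusted p of a member was 0.0821 (without culture 3). At an unadjusted p under 0.05 there were 4 members, where 1555 of all 22746 probe sets were. The alternatives ran from 0 members without culture 2 (1034 of all probe sets) to 16 without culture 3 (3607 of all probe sets). Over all probe sets 0 were called, against 128 higher and 19 lower without Col-0 replicate 3, 104 and 40 without culture 3, 71 and 17 without Col-0 replicate 3 plus sid2.2 replicate 2, 53 and 18 with hybridisation control centring, 2 and 1 with the low-signal filter, and 1 and 0 with a floor of 32. With culture as a replicate block 0 members were called, as in the main fit. The smallest limma adjusted p of a member was then 0.998. The median difference was -0.28 as before, which a block with both genotypes in every culture cannot change. Leaving out each array or culture in turn, the median over the 36 genes ran from -0.66 to -0.043 and the number below 0 from 20 to 34. The ndh median ran from -0.80 to -0.34, and was -0.79 when Col-0 replicate 3 was dropped together with sid2.2 replicate 2. Centring on hybridisation controls moved the median of all probe sets to -0.40 and the ndh median to -0.85; relative to all probe sets, the 36 genes stood at -0.29 before and after. Of 644 values for the 36 genes, 594 kept their sign and 50, in 18 genes, turned, 5 of them by a centring that shifts all genes alike. In the same way the range was -0.70 to 0.042 for ccsA, -0.095 to 0.072 for ndhC, -0.95 to 1.01 for ndhF (at background, so that its sign carries no weight), -1.05 to 0.30 for ndhJ, -0.95 to 0.44 for ndhK, -0.65 to 0.069 for rpl16, -0.52 to 0.17 for rpoA, -0.72 to 0.16 for rpoB, -0.12 to 0.51 for rpoC2 and -0.28 to 0.35 for rps4. ndhK was at 0.098 with that pair of arrays dropped, and ndhF at 0.074 with a pseudocount of 16. rps4 was at -0.0024 with quantile normalization, -0.038 with median centring and -0.37 with hybridisation control centring, and rpoC2 at -0.21 with the last. The centrings turned these signs by their constant shift; the cause of the other turns was not tested. The low-signal filter kept 32 of the 36 genes (not ndhF, ndhH, rpoB and rps14). Averaging several probe sets per gene was not run, since each gene had 1. Signal near background limits ndhF, rpoB and ndhH.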
